A study of Mus musculus with 15 samples.

Results

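Plasmacytoid dendritic cells (pDC) were set against type 2 conventional dendritic cells (cDC2), both sorted from the thymus of wild-type (WT) mice. The comparison rests on 5 of the 15 libraries of the series: 3 of pDC WT and 2 of cDC2 WT, chosen by their labels, with every gene of the count table taken. Of 22165 genes in that table, 11746 had enough counts to be tested. The same difference was taken in mice with a deletion of Stk11 in CD11c-expressing cells (Itgax-cre Stk11 fl/fl, called KO). Its 3 pDC KO and 3 cDC2 KO libraries served as a second set, with other libraries but within the same fit. Mice of both sexes, C57BL/6 and 8 to 12 weeks old, WT and KO alike, bore a B16 melanoma secreting Flt3L under the skin for 9 to 12 days before the thymus was taken. Flt3L is the growth factor that drives dendritic cell development, so every group comes from an expanded compartment and none from an untouched thymus. The pDC were gated as Siglec-H positive with intermediate CD11c, and the cDC2 as positive for CD11b, CD11c and MHC class II. The genes of those gate proteins (Siglech, Itgam, Itgax and the class II genes) therefore describe the sort and are no finding.

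Plasmacytoid dendritic cells are the main early source of type I interferon. They sense viral RNA and DNA in endosomes through TLR7 and TLR9 and carry a large secretory apparatus, and the E protein E2-2, encoded by Tcf4, is the master regulator of the lineage. Type 2 conventional dendritic cells take up antigen, mature and present it on MHC class II to CD4 T cells, and in the thymus conventional dendritic cells take part in the deletion of self-reactive thymocytes and the formation of regulatory T cells. Id2 and PU.1 are among the factors that hold the conventional lineage apart from the plasmacytoid one.

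The assay was strand-specific sequencing of 3′ tags of messenger RNA. Total counts were 7578681, 7809886 and 10499062 in pDC WT, and 3928164 and 6705249 in cDC2 WT. Thinned to the smallest library, pDC WT showed 10985 to 11233 genes and cDC2 WT 10840 and 11358. The labels do not say that replicates came from separate mice, so p-values measure the spread between these samples, which may be technical. In bulk libraries such as these, fewer cells of a type and less RNA per cell cannot be told apart. Levels are given as CPM, counts relative to the TMM-scaled size of their library. Differences are log2 of pDC WT over cDC2 WT with their standard error. The quasi-likelihood test of edgeR gave the p-values, which were adjusted by Benjamini-Hochberg over all 11746 genes, and a gene was called at an adjusted p under 0.05.

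Siglech, Spib and Itgam, defining genes of the groups, matched the labels of the libraries. Siglech, an endocytic lectin of mouse pDC (chromosome 7), had 15568, 19163 and 27709 CPM in pDC WT, against 232 and 177 CPM in cDC2 WT. Spib, a transcription factor gene of the ETS family, had 272, 255 and 362 CPM in pDC WT, against 17.0 and 9.79 CPM in cDC2 WT. Wdfy4, needed for cross-presentation in cDC1, had 67.6, 61.5 and 61.0 CPM in pDC WT, against 663 and 1014 CPM in cDC2 WT. It averaged 863 ± 32.6 CPM in cDC1 WT (SD, n = 2), so it sets pDC apart from both conventional subsets and does not tell cDC2 from cDC1. None of these sets of pDC WT and cDC2 WT libraries overlapped. Itgam, which encodes CD11b, stood at 7.81, 2.97 and 4.65 CPM in pDC WT, against 105 and 102 CPM in cDC2 WT. Itgax, which encodes CD11c, overlapped between the groups, with 157, 160 and 113 CPM in pDC WT against 183 and 147 CPM in cDC2 WT, a difference of -0.21 ± 0.25 (adjusted p = 0.599).

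**Figure D1:**
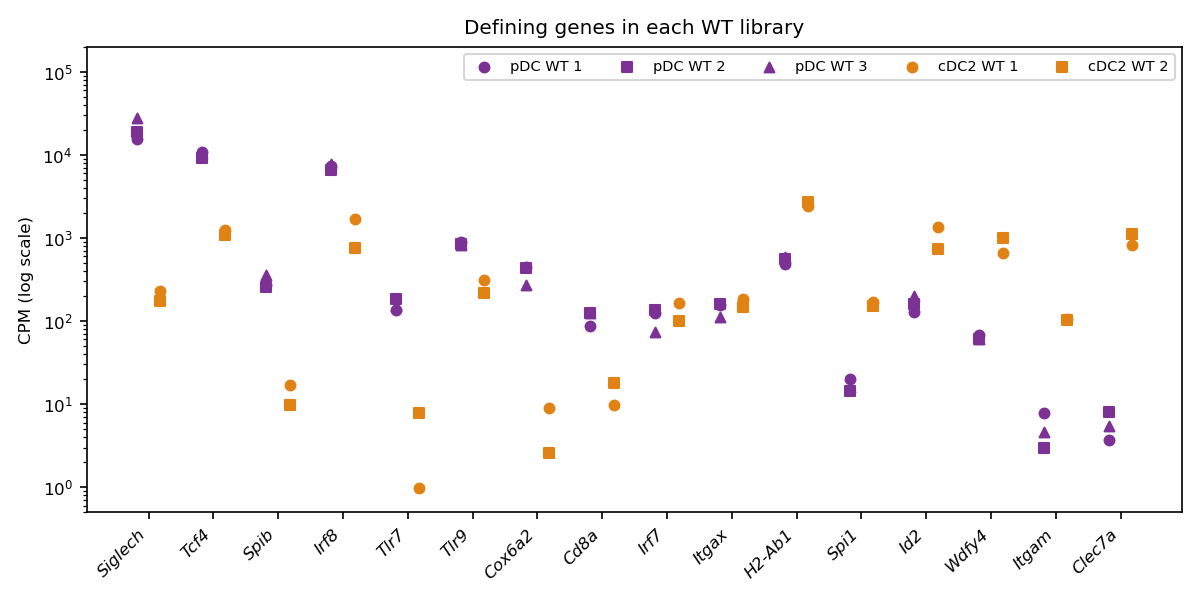
CPM on a log axis for 16 genes in each of the 3 pDC WT libraries (left of each tick) and the 2 cDC2 WT libraries (right of each tick), 1 point per library. Siglech, Tcf4, Spib and Tlr7 sit far higher in pDC WT, Wdfy4, Itgam and Clec7a far lower, and Irf7 and Itgax overlap.

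The cDC2 WT libraries also carried some genes of type 1 conventional dendritic cells, at levels that differed between the pair. Xcr1, the chemokine receptor that marks cDC1, had 0.260, 1.94 and 4.53 CPM in pDC WT, against 226 and 65.1 CPM in cDC2 WT, and it averaged 563 ± 134 CPM in cDC1 WT (SD, n = 2). Tlr3 had 0.130, 0.258 and 0 CPM in pDC WT, against 100 and 6.02 CPM in cDC2 WT. Both genes were lower in pDC WT by the test, and cDC2 WT 1 was the higher of the pair for each. Most listed cDC1 markers shared that order, Cadm1 among them at 92.8 and 45.6 CPM in cDC2 WT 1 and 2. Snx22 (19.7 and 27.3 CPM), Itgae (32.8 and 36.9 CPM), Wdfy4 and Cd8a were among those with the reverse order. Cd207 had no count in cDC2 WT, against a mean of 54.5 CPM in cDC1 WT. Cadm1 averaged 69.2 CPM in cDC2 WT against 783 CPM in cDC1 WT. Of 24 tested cDC1 markers, 2 were higher and 16 lower in pDC WT, against 11.4% and 12.2% of all tested genes. Without cDC2 WT 2, 1 was higher and 16 were lower. The summed CPM of that list was 1749, 922 and 750 in pDC WT against 4073 and 3026 in cDC2 WT. Within it, Cadm1 alone had 961 CPM in pDC WT 1, against 68.2 and 70.6 CPM in pDC WT 2 and 3. Whether cDC1 were in the cDC2 gate, and any part they have in the differences below, was not tested. Clec9a, a lectin of cDC1 that mouse pDC also express, overlapped at 116, 111 and 57.5 CPM in pDC WT against 113 and 50.8 CPM in cDC2 WT.

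Across all tested genes, 2771 were called (23.6%), of which 1336 were higher in pDC WT (11.4%) and 1435 lower (12.2%). Of those called, 1321 of the higher and 1353 of the lower ones also had no overlap between the libraries of the groups, and over all tested genes the libraries did not overlap for 2682 higher genes (22.8%) and 2400 lower ones (20.4%). Of the called genes, 1257 of the higher and 1365 of the lower ones differed by at least 2-fold, and 381 and 597 by at least 8-fold. The median over all tested genes was 0.07. With the 5 libraries alone in the fit, 679 were higher and 889 lower.

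**Figure D2:**
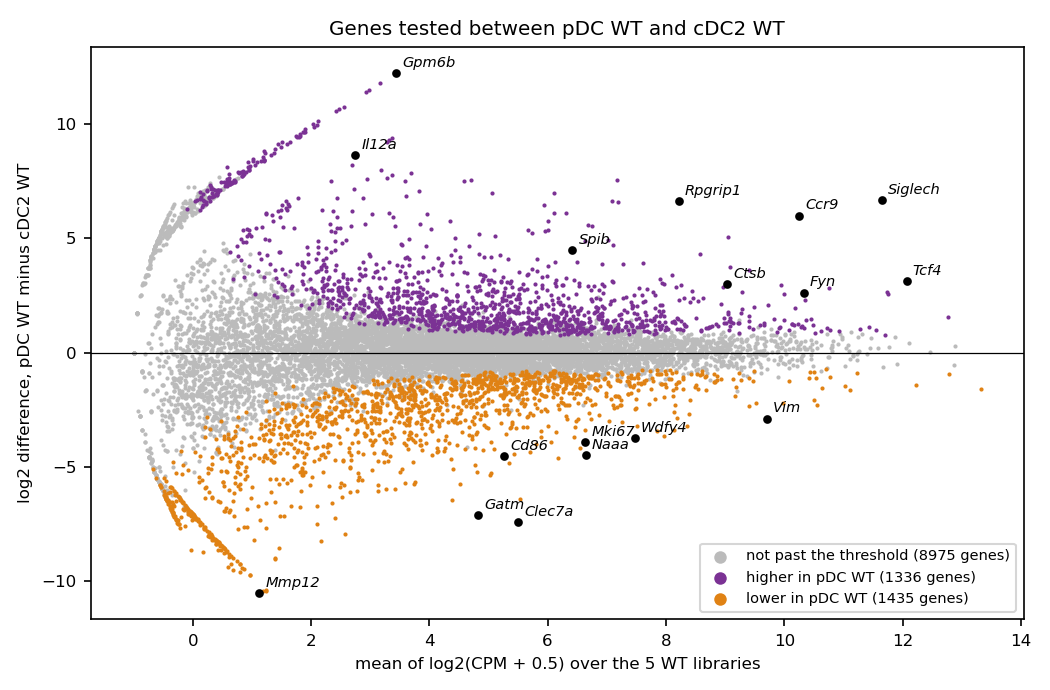
Each point is 1 of 11746 tested genes, placed by its mean log2(CPM + 0.5) over the 5 WT libraries (x) and its log2 difference, pDC WT minus cDC2 WT (y), with 1336 higher genes, 1435 lower genes and the rest in grey. The diagonal edges hold genes with no count in 1 group, whose fitted difference is no bound.

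Among the 15 genes with the smallest p that were higher in pDC WT stood Ly6d, a surface protein of lymphoid progenitors (97.0-fold), Pacsin1, a membrane-bending adaptor of pDC (94.5-fold), Rpgrip1, best known from photoreceptors (97.2-fold), Cmah, which makes the sialic acid Neu5Gc (126-fold), and Mctp2, a C2-domain membrane protein (86.0-fold). Klk1, a kallikrein protease, had 157, 168 and 159 CPM in pDC WT, against 1.46 and 0.452 CPM in cDC2 WT. Cox6a2, a subunit of cytochrome c oxidase better known from heart and skeletal muscle, had 448, 431 and 272 CPM in pDC WT, against 8.98 and 2.56 CPM in cDC2 WT. Both genes were read at low levels in cDC2 WT and the libraries did not overlap. The ubiquitous isoform gene Cox6a1 overlapped, at 133, 135 and 95.7 CPM in pDC WT against 136 and 116 CPM in cDC2 WT. Other genes had no count in cDC2 WT, which bounds their folds: Gpm6b, a neuronal membrane glycoprotein gene, was at least 301-fold higher in pDC WT, Tmem163 at least 221-fold, Zcchc18 at least 173-fold, Xkrx at least 108-fold and Fyb2 at least 103-fold. These bounds take a floor of 3 counts over the group and cover counting error only.

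In the list of pDC surface proteins, 27 of 31 tested genes were higher in pDC WT and 2 lower, with a median of 2.90. The pDC lists were chosen with earlier results of these data known, so their shares and medians describe the lists. Bst2, which encodes the antigen of the PDCA-1 antibody, had 164, 172 and 131 CPM in pDC WT, against 36.4 and 18.5 CPM in cDC2 WT (2.51 ± 0.33, adjusted p = 2.72e-05). Lair1, an inhibitory collagen receptor, had 1830, 1884 and 2877 CPM in pDC WT, against 81.6 and 51.8 CPM in cDC2 WT. Havcr1, which encodes TIM-1, had 77.5, 91.2 and 71.2 CPM in pDC WT, against 2.43 and 2.56 CPM in cDC2 WT. The pDC WT libraries lay above both cDC2 WT libraries for each of these genes. Lag3, an inhibitory receptor gene that resting pDC express, was low but higher in pDC WT, at 8.46, 5.03 and 5.21 CPM against 0.243 and 0.301 CPM in cDC2 WT. The 2 lower members were Slamf7, a SLAM-family receptor (9.33-fold lower), and Ifngr1, a chain of the interferon gamma receptor. In a list named for granule and intracellular products of pDC, 17 of 20 tested genes were higher, none were lower, and the median was 4.70. The list is mixed: it also holds genes of membrane receptors, such as Epha2 and Grm8. Its granzyme gene Gzmb had no count in any pDC WT or cDC2 WT library. Grm8, a glutamate receptor gene, had 67.1, 50.4 and 35.9 CPM in pDC WT, against 0.243 and 0.151 CPM in cDC2 WT. Upb1, an enzyme of pyrimidine breakdown, was 36.0-fold higher.

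The promoters of 3 genes higher in pDC WT are shown for the E-box letters CAGGTG, which E proteins such as E2-2 are known to bind. All 3 hold these letters, as 20.3% of promoters of genes higher in pDC WT did, so they are examples and not typical. Each sequence is the 250 bases before the gene's start on its own strand, from RefSeq on GRCm38.p6, with CAGGTG (either strand) in capitals and, for Mctp2, also GAGGAAGT, letters of the element that Spi-B and PU.1 share. They are Siglech (chr7:55767934-55768183, plus strand), Mctp2 (chr7:72306596-72306845, minus strand) and Blnk (chr19:40994222-40994471, minus strand), an adaptor gene described further on.
Siglech: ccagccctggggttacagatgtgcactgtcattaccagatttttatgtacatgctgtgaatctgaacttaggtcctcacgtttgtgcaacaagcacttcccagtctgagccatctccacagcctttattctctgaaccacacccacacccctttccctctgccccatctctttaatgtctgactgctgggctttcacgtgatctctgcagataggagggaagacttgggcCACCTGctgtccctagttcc
Mctp2: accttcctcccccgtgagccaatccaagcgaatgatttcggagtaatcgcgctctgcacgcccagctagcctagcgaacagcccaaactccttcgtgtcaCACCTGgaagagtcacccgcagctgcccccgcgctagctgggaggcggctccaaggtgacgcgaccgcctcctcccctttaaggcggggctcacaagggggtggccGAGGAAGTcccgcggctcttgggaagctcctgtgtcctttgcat
Blnk: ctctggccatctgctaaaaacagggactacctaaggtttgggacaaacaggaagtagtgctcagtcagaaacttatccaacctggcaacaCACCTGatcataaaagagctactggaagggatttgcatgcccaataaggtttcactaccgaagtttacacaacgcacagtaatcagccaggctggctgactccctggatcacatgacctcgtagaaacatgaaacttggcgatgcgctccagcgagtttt
In Siglech the E-box began 20 bases before the start, in Mctp2 150 and in Blnk 160. CAGGTG was found in 17.2% of all 32851 promoters of the RefSeq table in a window of this length, in 15.4% of the 11778 promoters of tested genes, in 20.3% of the 1352 promoters of genes higher in pDC WT and in 12.9% of the 1449 promoters of genes lower in pDC WT. GAGGAAGT was found in 2.44%, 2.83%, 1.92% and 3.11% of the same sets. In the table, 1026 of the 1336 higher genes and 1117 of the 1435 lower genes had a promoter. A match is a run of letters and no evidence of binding.

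The regulators of the lineages were mostly apart between the groups, with some exceptions. Of 17 tested transcription factors of pDC, 12 were higher in pDC WT and 1 lower, with a median of 2.23. Tcf4 had 10862, 9261 and 10566 CPM in pDC WT, against 1256 and 1083 CPM in cDC2 WT (3.13 ± 0.27, adjusted p = 3.16e-07). Runx2, which guides pDC out of the bone marrow, had 1499, 1342 and 1917 CPM in pDC WT, against 171 and 69.1 CPM in cDC2 WT. Irf8, needed by cDC1 and for pDC function, had 7282, 6675 and 7729 CPM in pDC WT, against 1707 and 758 CPM in cDC2 WT. Each had every pDC WT library above both cDC2 WT libraries. The E protein gene Tcf12 (4.68-fold), Ets1 (6.15-fold) and Tsc22d1 (5.75-fold) were also higher. Bcl11a, a regulator upstream of E2-2, was higher by 1.16 ± 0.37 (adjusted p = 0.0311), a call lost without cDC2 WT 2 (adjusted p = 0.279) and without pDC WT 1 (0.104). The exception in the list was Cbfa2t3, which encodes the corepressor ETO2 and was lower in pDC WT (-1.25), a call lost without cDC2 WT 1 (adjusted p = 0.0797). Irf7, which amplifies interferon production, overlapped at 125, 135 and 73.2 CPM in pDC WT against 166 and 99.1 CPM in cDC2 WT (-0.25 ± 0.31, adjusted p = 0.608), and its sign turned to 0.17 without cDC2 WT 1.

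Of 27 tested factors of conventional dendritic cells, 12 were lower in pDC WT and 2 higher, with a median of -1.42, and 1 was higher without cDC2 WT 2 or without pDC WT 1. Spi1, which encodes PU.1, had 19.8, 14.3 and 16.1 CPM in pDC WT, against 168 and 152 CPM in cDC2 WT (-3.26 ± 0.28, adjusted p = 4.23e-07). Id2, the inhibitor of E proteins, had 129, 161 and 199 CPM in pDC WT, against 1358 and 734 CPM in cDC2 WT. Zbtb46, the factor that marks conventional dendritic cells, had 10.3, 8.77 and 2.04 CPM in pDC WT, against 69.2 and 38.7 CPM in cDC2 WT. The groups did not overlap for these genes, and pDC WT was the lower. Bcl6 (9.78-fold lower), Rbpj, the effector of Notch signalling (4.85-fold lower), and Relb, a subunit of NF-kB (3.33-fold lower), shared that direction. Zeb2, which represses Id2, was higher in pDC WT, at 1750, 1101 and 1704 CPM against 526 and 620 CPM in cDC2 WT. Irf4, a cDC2 factor, did not pass the test, with 19, 13 and 65.4 CPM in pDC WT against 53.2 and 46.1 CPM in cDC2 WT. Here pDC WT 3 lay above both cDC2 WT libraries, and pDC WT 1 and 2 lay below them.

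Of 31 tested surface genes of cDC2, 15 were lower in pDC WT and 3 higher, with a median of -1.90. Clec7a, which encodes the beta-glucan receptor Dectin-1, had 3.65, 8.00 and 5.44 CPM in pDC WT, against 814 and 1134 CPM in cDC2 WT (-7.41 ± 0.97, adjusted p = 5.47e-05). Clec4a1, of the DCIR lectin family, had no count in pDC WT and was at least 203-fold lower. Sirpa, often used to mark cDC2, was not among the lower genes, with 119, 132 and 143 CPM in pDC WT against 76.2 and 106 CPM in cDC2 WT (0.52 ± 0.28, adjusted p = 0.193). Cd4 ran against the list, at 155, 194 and 151 CPM in pDC WT against 11.7 and 29.1 CPM in cDC2 WT (8.11-fold higher). Cd8a, used in this study to gate cDC1, was also higher in pDC WT, at 86.3, 125 and 125 CPM against 9.71 and 18.1 CPM in cDC2 WT, and it averaged 254 ± 6.59 CPM in cDC1 WT (SD, n = 2). Both coreceptor genes had every pDC WT library above both cDC2 WT libraries. The 15 genes with the smallest p that were lower in pDC WT included Pak1, a kinase of the actin cytoskeleton (38.8-fold lower), Gatm, which makes the creatine precursor guanidinoacetate (138-fold lower), Fgl2 (37.4-fold lower), Prkar2a, a regulatory subunit of protein kinase A (21.3-fold lower), and Aif1 (28.7-fold lower).

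Toll-like receptors were called in both directions. Of 11 tested Toll-like receptor genes, 3 were higher and 5 lower in pDC WT, or 72.7% called against 23.6% of all tested genes. Tlr7, the endosomal receptor for single-stranded RNA, had 137, 187 and 151 CPM in pDC WT, against 0.971 and 7.83 CPM in cDC2 WT (5.08 ± 0.57, adjusted p = 4.66e-06). Tlr9, the endosomal receptor for unmethylated CpG DNA, had 886, 853 and 823 CPM in pDC WT, against 312 and 217 CPM in cDC2 WT (1.69 ± 0.30, adjusted p = 0.000517). The groups were apart for both genes, with pDC WT the higher. Tlr12 was higher too (2.36 ± 0.60), a call lost without cDC2 WT 2 (adjusted p = 0.0507). Tlr11, which binds profilin of Toxoplasma, had no count in pDC WT and was at least 116-fold lower, and Tlr13, a receptor for bacterial ribosomal RNA, and Tlr2, a receptor for lipoproteins, were lower. Tlr11 is also on the list of cDC1 markers and averaged 89.8 CPM in cDC1 WT, against 15.2 CPM in cDC2 WT.

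Along the path from sensing to interferon, 9 of 39 tested genes were higher in pDC WT and 6 lower. That is a called share of 38.5%, against 23.6% of all tested genes. Unc93b1, the chaperone that brings these receptors to endosomes, had 417, 442 and 324 CPM in pDC WT, against 160 and 87.2 CPM in cDC2 WT. Pld4, an endolysosomal nuclease, had 577, 670 and 604 CPM in pDC WT, against 130 and 103 CPM in cDC2 WT. Both genes were higher in every pDC WT library. Ifih1, which encodes the cytosolic RNA sensor MDA5, was lower, at 25.0, 45.2 and 47.7 CPM in pDC WT against 238 and 145 CPM in cDC2 WT. Irf5, a factor downstream of the Toll-like receptors, was 3.04-fold lower. The adaptor gene Myd88 (-0.42, adjusted p = 0.46) and Irf3 (0.86, adjusted p = 0.085) did not pass the test.

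Genes that type I interferon induces were mostly lower in pDC WT. Of 48 tested, 27 were lower and 3 higher, with a median of -1.35, and 16 were lower and 1 higher without cDC2 WT 2. Without pDC WT 2, 1 was higher. Ifit1, which binds viral RNA, had 9.77, 12.0 and 8.84 CPM in pDC WT, against 85.7 and 153 CPM in cDC2 WT. Ifi205, of the DNA-binding p200 family, had 9.64, 5.68 and 5.55 CPM in pDC WT, against 253 and 162 CPM in cDC2 WT. It is on the list of cDC1 markers too and averaged 303 CPM in cDC1 WT. Ifitm3, which blocks entry of enveloped viruses, had 22.9, 22.1 and 6.91 CPM in pDC WT, against 166 and 176 CPM in cDC2 WT. For each of these the cDC2 WT libraries lay above every pDC WT library. The 3 higher members were Bst2, Trim30a (0.84) and Ifi47 (1.32). The calls of Trim30a and Ifi47 were lost when any 1 library other than pDC WT 3 was left out, with adjusted p-values up to 0.297 and 0.119. In all, Trim30a lost its call in 10 of 15 other settings, among them the replicate number as a block (adjusted p = 0.0572), RLE scaling (0.0607) and no filter (0.0801), and Ifi47 in 7 of 15, the block not among them. The receptor genes ran the other way: Ifnar1 had 408, 408 and 507 CPM in pDC WT, against 193 and 131 CPM in cDC2 WT, and Ifnar2 was 5.69-fold higher in pDC WT.

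Bst2 and Ifit1 moved in opposite directions and are shown for the letters they have in common, GAAA and GAAA with 2 bases of any kind between them, the core of the interferon-stimulated response element. The sequences are the 250 bases before the start of Bst2 (chr8:71537473-71537722, minus strand) and of Ifit1 (chr19:34640639-34640888, plus strand), with matches on either strand in capitals. The 2 matches in Bst2 overlap.
Bst2: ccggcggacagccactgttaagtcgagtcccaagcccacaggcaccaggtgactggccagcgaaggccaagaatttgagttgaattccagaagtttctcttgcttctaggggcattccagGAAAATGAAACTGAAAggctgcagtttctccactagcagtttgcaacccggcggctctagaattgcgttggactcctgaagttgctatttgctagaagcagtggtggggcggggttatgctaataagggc
Ifit1: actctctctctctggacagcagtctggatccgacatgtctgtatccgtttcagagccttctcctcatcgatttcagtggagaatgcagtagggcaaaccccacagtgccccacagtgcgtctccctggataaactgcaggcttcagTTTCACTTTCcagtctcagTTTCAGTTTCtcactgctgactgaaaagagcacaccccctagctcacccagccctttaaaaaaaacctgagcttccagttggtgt
The first match began 130 bases before the start in Bst2 and 104 bases before it in Ifit1. These letters were found in 22 of 46 promoters of the interferon list (47.8%), which covered 38 of its 48 tested genes, in 2.90% of 11778 promoters of tested genes and in 2.98% of all 32851 promoters. The list was put together from known interferon targets, so that share describes the list.

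Genes of MHC class II presentation, which the cDC2 gate selects for in part, were lower in pDC WT in 11 of 18 tested cases and higher in none, with a median of -1.43. H2-Ab1 had 482, 562 and 597 CPM in pDC WT, against 2429 and 2689 CPM in cDC2 WT, and Cd74, the invariant chain, was 3.13-fold lower. Ciita, the class II transactivator, had 19.1, 9.55 and 33.7 CPM in pDC WT, against 774 and 71.1 CPM in cDC2 WT. Its call (adjusted p = 0.0243) was lost in 5 of 14 other settings. These were without cDC2 WT 1 (adjusted p = 0.363), without pDC WT 1 (0.0696), with the replicate number as a block (0.0614), under limma voom (0.0934) and in a test against a fold of 2 (0.0545). H2-Ob, a chain of the peptide-editing inhibitor H2-O, was 15.5-fold lower. Of 23 tested class I genes, 4 were higher and 2 lower, with a median of 0.31. That called share of 26.1% was close to the 23.6% of all tested genes. Without cDC2 WT 1 or without pDC WT 3, 1 was higher, and none were lower without cDC2 WT 2 or without pDC WT 3.

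Many genes of maturation and costimulation were lower in pDC WT. Of 40 genes of the migratory maturation programme, 19 were lower and 1 higher, with a median of -1.69, and 12 were lower and 2 higher without cDC2 WT 2. Cd86, a ligand of CD28, had 8.59, 8.39 and 16 CPM in pDC WT, against 239 and 267 CPM in cDC2 WT (-4.52 ± 0.36, adjusted p = 1.63e-07). Cd40 had 8.59, 3.35 and 2.95 CPM in pDC WT, against 31.1 and 39.5 CPM in cDC2 WT. Both genes were lower in every pDC WT library. Ccl17 and Ccl22, chemokines that draw CCR4-bearing T cells, were 50.4-fold and 11-fold lower. Ccr7, the receptor that guides mature dendritic cells, had 32.3, 41.0 and 56.2 CPM in pDC WT, against 109 and 292 CPM in cDC2 WT. Those libraries did not overlap, but the test did not pass (-2.21 ± 0.78, adjusted p = 0.0511).

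Among 33 tested chemokines and cytokines, 16 were lower in pDC WT and 2 higher, with a median of -2.54. Il1b, an inflammatory cytokine, had 1.56, 0.129 and 1.59 CPM in pDC WT, against 75.0 and 73.8 CPM in cDC2 WT. Cxcl16 was 18.4-fold lower. The 2 higher genes were Il12a, which encodes the p35 chain of interleukin 12, and Ccl4, an inflammatory chemokine. Il12a had 27.1, 17.0 and 86.1 CPM in pDC WT, against 0 and 0.151 CPM in cDC2 WT, where it had 1 count in all. Ccl4 had 113, 205 and 253 CPM in pDC WT, against 22.3 and 41.4 CPM in cDC2 WT. The partner chain gene Il12b overlapped, with a difference of -0.44 (adjusted p = 0.674).

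Many genes of lymphoid signalling were higher in pDC WT. Of 36 tested genes of lymphoid and antigen-receptor signalling, 17 were higher and 3 lower, with a median of 1.07, and 1 was lower without cDC2 WT 1 or without cDC2 WT 2. Blnk, the adaptor that couples the kinase SYK to calcium signalling in B cells, had 333, 248 and 371 CPM in pDC WT, against 3.88 and 7.53 CPM in cDC2 WT (5.76 ± 0.46, adjusted p = 1.68e-07). Dntt, the terminal transferase that adds bases at antigen-receptor joints, had 73.7, 92.2 and 97.6 CPM in pDC WT, against 4.37 and 2.71 CPM in cDC2 WT. Il7r, the interleukin 7 receptor chain, had 412, 521 and 435 CPM in pDC WT, against 36.9 and 25.3 CPM in cDC2 WT. None of these libraries overlapped between the groups. Notch1 (7.39-fold), the kinase gene Fyn (6.12-fold) and Tyrobp, which encodes the adaptor DAP12 (6.34-fold), were also higher. Notch3 had no count in cDC2 WT and was at least 51.0-fold higher. CAGGTG was found in 13 of 29 promoters of this list (44.8%), which covered 26 of its 36 tested genes, against 17.2% of all promoters and 15.4% of those of tested genes. This was the highest share among the lists searched and was picked out after the shares were seen. The next highest shares were 40% of 5 promoters in the list of thymic epithelium and stroma and 35% of 20 in the costimulatory list. In that costimulatory list 9 genes were lower in pDC WT and 3 higher. The share was 32.4% of 37 promoters in the thymocyte list, 20% of 30 in the pDC surface list and 17.4% of 23 in the list of pDC transcription factors.

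Some thymocyte genes were higher in pDC WT and others did not pass the test. Of 23 tested thymocyte and T cell genes, 6 were higher in pDC WT and none lower, with a median of 0.45, and 3 were higher without cDC2 WT 1. The called share of that list was 26.1%, all higher, against 23.6% of all tested genes in either direction and 11.4% higher. Cd8b1, the CD8 beta chain, had 252, 197 and 258 CPM in pDC WT, against 2.43 and 8.74 CPM in cDC2 WT (5.34 ± 0.48, adjusted p = 5.73e-07). Arpp21, an RNA-binding protein gene of immature thymocytes, was 14-fold higher and Thy1 4.79-fold higher. The defining gene Cd3e had 2.34, 6.32 and 4.42 CPM in pDC WT, against 0 and 6.18 CPM in cDC2 WT (0.45 ± 1.30, adjusted p = 0.844). Cd3d and Cd3g did not pass the test either, with differences of -0.42 and -0.23. The summed CPM of the list was 832, 753 and 1005 in pDC WT, against 362 and 482 in cDC2 WT. Of 7 tested B cell and plasma cell genes, 1 was higher in pDC WT and 2 were lower, with a median of -0.88, and 2 were higher and 3 lower without pDC WT 2. Fcrla was 40.5-fold higher, Ms4a1 had no count in pDC WT and was at least 41.3-fold lower, and Cd22 was 22.2-fold lower, a call lost without cDC2 WT 1 (adjusted p = 0.178). Cd79a and Pax5 were too low to be tested. Macrophage genes were lower in pDC WT in 8 of 14 tested cases and higher in none, with summed CPM of 26.8, 20.3 and 26.9 in pDC WT against 173 and 188 in cDC2 WT. Genes of natural killer and innate lymphoid cells were lower in 6 of 14 cases and higher in none, with summed CPM of 191, 207 and 222 in pDC WT against 329 and 369 in cDC2 WT, and 2 were lower without cDC2 WT 1 and 3 without any 1 pDC WT library. Monocyte and neutrophil genes were lower in 4 of 10 cases, with sums of 7.29, 3.48 and 4.99 CPM in pDC WT against 37.1 and 22.7 CPM in cDC2 WT, and 2 were lower without cDC2 WT 2. Called shares were 42.9% in the B cell list and in the natural killer list, 40% in the monocyte list and 57.1% for macrophages. Each rests on few tested genes, and 23.6% of all tested genes were called. The part of admixed cells in these differences was not tested.

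Some genes of the secretory pathway and the unfolded protein response were higher in pDC WT. Of 72 tested, 30 were higher, 1 was lower and 41 did not pass the test, with a median of 0.77. Without cDC2 WT 1, 16 were higher. Xbp1, the factor that enlarges the endoplasmic reticulum in secretory cells, had 265, 259 and 425 CPM in pDC WT, against 67.7 and 70.5 CPM in cDC2 WT (2.19 ± 0.32, adjusted p = 7.6e-05). Ern1, which encodes IRE1, the sensor that activates Xbp1 messenger RNA, was 3.82-fold higher. Sec24d, a coat protein of vesicles that leave the endoplasmic reticulum, had 89.5, 83.1 and 106 CPM in pDC WT, against 9.47 and 12.0 CPM in cDC2 WT. Edem2, which sorts misfolded glycoproteins for degradation, was 5.20-fold higher. The groups were apart for each of these genes, and the lower member was Sdf2l1, a cofactor of the chaperone BiP (-1.44), a call lost without cDC2 WT 1 (adjusted p = 0.0909).

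Lysosomal genes were higher in 17 and lower in 5 of 46 tested cases, with a median of 0.57, and 2 were lower without cDC2 WT 1. Ctsl, which encodes cathepsin L, had 511, 504 and 423 CPM in pDC WT, against 8.01 and 12.0 CPM in cDC2 WT (5.56 ± 0.44, adjusted p = 1.39e-07). Ctsb, the gene of cathepsin B, had 1124, 1501 and 1019 CPM in pDC WT, against 173 and 134 CPM in cDC2 WT. Grn, the progranulin gene, was 7.75-fold higher. In oxidative phosphorylation 3 of 62 tested genes were higher, Cox6a2 among them, and 1 was lower, or 6.45%, against 23.6% of all genes. Without cDC2 WT 1, cDC2 WT 2 or pDC WT 2, 1 was higher, and up to 3 were lower. In glycolysis 7 of 24 were lower in pDC WT and 1 higher, with a median of -0.76, and 3 were lower without cDC2 WT 1. The called share of the glycolysis list was 33.3%, against 23.6% of all tested genes. Hk2, the inducible hexokinase, had 28.6, 23.2 and 60.6 CPM in pDC WT, against 314 and 250 CPM in cDC2 WT. Pfkp, the platelet isoform of phosphofructokinase, was 6.20-fold lower. In cholesterol and fatty acid synthesis 7 of 33 genes were higher and 1 lower, and 4 were higher without cDC2 WT 1. The called share of that list, 24.2%, was close to the 23.6% of all tested genes. Fads2, a fatty acid desaturase gene, was 10.3-fold higher in pDC WT, and Scap, whose protein escorts the SREBP factors to the Golgi, 6.29-fold higher. Of 74 cytosolic ribosomal protein genes, 1 was higher and 2 lower, with 1 to 4 lower when 1 library was left out.

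Most genes of cell division were lower in pDC WT. Of 46 tested DNA replication genes, 31 were lower and none higher, with a median of -2.01. Of 50 mitosis genes, 39 were lower and none higher, with a median of -2.54. Mki67, the proliferation marker Ki-67, had 14.2, 39.6 and 57.1 CPM in pDC WT, against 385 and 729 CPM in cDC2 WT (-3.91 ± 0.57, adjusted p = 0.000105). Top2a, which untangles replicated DNA, had 66.7, 96.9 and 63.8 CPM in pDC WT, against 577 and 823 CPM in cDC2 WT. Lig1, the ligase that joins Okazaki fragments, had 22.7, 43.2 and 47.4 CPM in pDC WT, against 222 and 293 CPM in cDC2 WT. Every pDC WT library lay below both cDC2 WT libraries for these genes, and pDC WT 1 had the lowest Mki67. Of 30 tested genes of cyclins, CDK inhibitors and E2F control, 9 were lower, 3 higher and 18 did not pass the test, with a median of -0.14. The called share was 40%, against 23.6% of all tested genes. Ccne1, E2f2 and E2f8 were 20.0-fold, 7.50-fold and 19.8-fold lower, and Myc 17.9-fold lower. Among those that did not pass, Ccnd1 (-0.14), Cdk4 (0.65) and Cdk6 (0.37) are named after their values were seen. Cdkn2d, an inhibitor of CDK4 and CDK6, and E2f4, a repressor E2F, were 4.63-fold and 2.73-fold higher in pDC WT.

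Mki67 and Top2a are shown for the letters CCAAT, which NF-Y binds, and TTTGAA, the CHR element known from genes of the late cell cycle. The sequences are the 250 bases before the start of Mki67 (chr7:135716380-135716629, minus strand) and Top2a (chr11:99024190-99024439, minus strand), with both motifs on either strand in capitals.
Mki67: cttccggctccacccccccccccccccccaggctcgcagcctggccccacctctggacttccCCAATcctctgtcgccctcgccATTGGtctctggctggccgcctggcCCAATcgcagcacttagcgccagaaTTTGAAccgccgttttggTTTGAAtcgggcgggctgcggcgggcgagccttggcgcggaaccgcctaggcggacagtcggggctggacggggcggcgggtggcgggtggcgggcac
Top2a: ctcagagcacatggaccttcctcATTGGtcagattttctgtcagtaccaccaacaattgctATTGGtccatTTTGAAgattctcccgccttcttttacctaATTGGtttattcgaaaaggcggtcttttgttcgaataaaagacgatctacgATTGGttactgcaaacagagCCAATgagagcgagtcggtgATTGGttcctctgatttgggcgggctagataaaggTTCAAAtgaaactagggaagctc
Mki67 held 5 matches and Top2a 8. CCAAT was found in 68.9% of 45 promoters of the mitosis list, which covered 42 of its 50 tested genes, in 57.1% of 42 promoters of the replication list, in 35.2% of 11778 promoters of tested genes and in 33.8% of all 32851 promoters. TTTGAA was found in 35.6% of the mitosis list, 11.9% of the replication list, 10.8% of promoters of tested genes and 16% of all promoters.

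**Figure D3:**
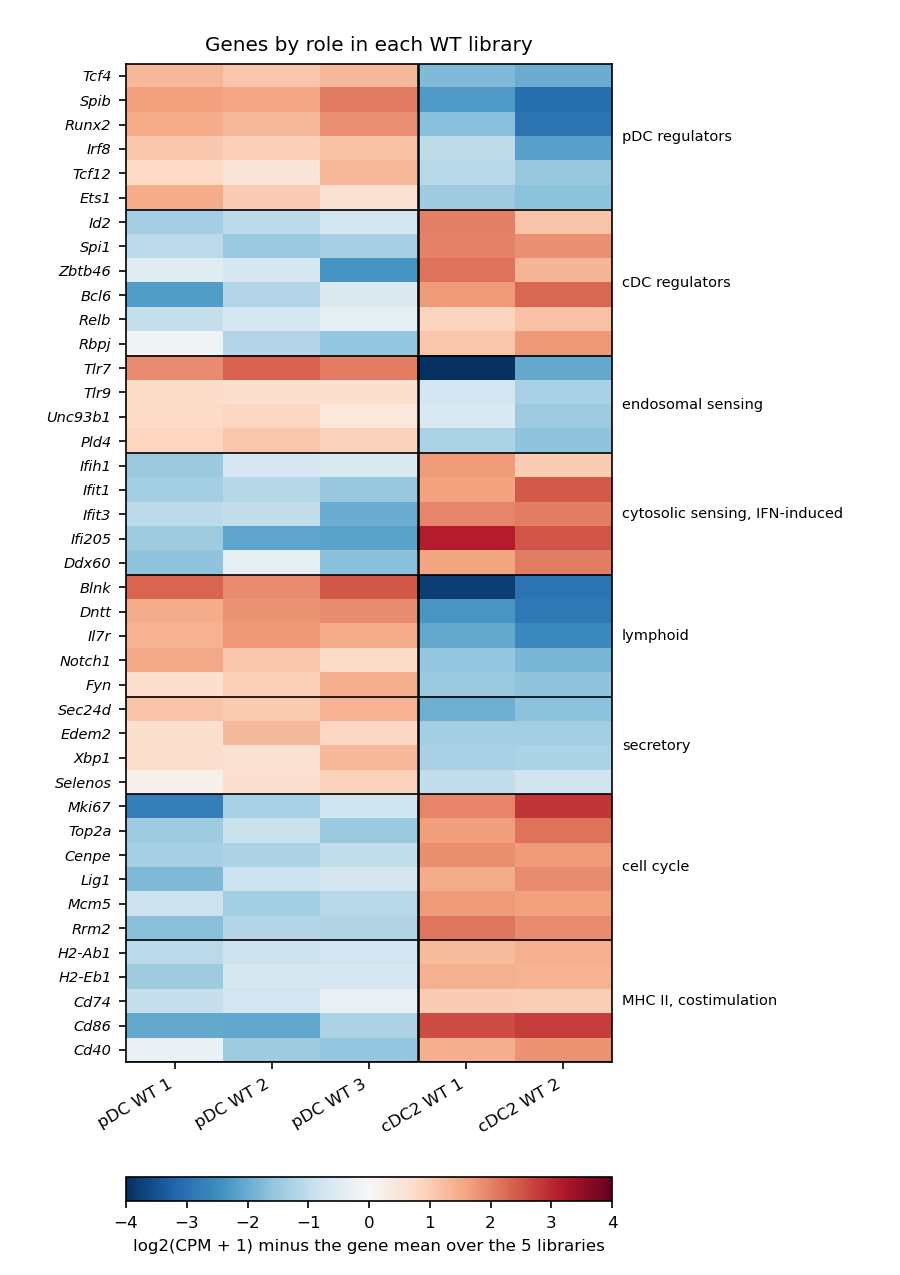
Each row is 1 gene and each column 1 WT library, pDC WT 1 to 3 on the left and cDC2 WT 1 and 2 on the right. Colour gives log2(CPM + 1) minus the mean of the gene over the 5 libraries, red above it and blue below it. Genes are grouped by role, and within most groups the pDC WT columns share 1 colour and the cDC2 WT columns the other.

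Receptors for homing and growth factors were called in both directions. Of 24 tested chemokine and homing receptors, 6 were higher and 7 lower in pDC WT, and 4 were lower without cDC2 WT 2. Ccr9, the receptor for CCL25 that brings pDC to the thymus and gut, had 4336, 3983 and 12968 CPM in pDC WT, against 136 and 89.2 CPM in cDC2 WT (5.98 ± 0.60, adjusted p = 1.73e-06). All pDC WT libraries lay above both cDC2 WT libraries, and pDC WT 3 stood above the others of its group. Cxcr3 was 14.1-fold higher, and Cx3cr1, the fractalkine receptor, was 4.92-fold lower, a call lost without cDC2 WT 1 (adjusted p = 0.052). Of 38 growth factor and cytokine receptors, 11 were higher and 11 lower. Flt3, the receptor for the Flt3L that the tumours secreted, did not pass the test, with 174, 175 and 133 CPM in pDC WT against 246 and 176 CPM in cDC2 WT (-0.39 ± 0.26, adjusted p = 0.305). Csf1r was 67.4-fold and Kit 11.7-fold lower in pDC WT, while Csf2rb2 was 4.40-fold and Tnfrsf13b, which encodes TACI, 4.13-fold higher. Genes of actin, motility and adhesion were lower in 23 of 56 cases and higher in 5, or 3 without cDC2 WT 1. Vim, the vimentin gene, had 409, 402 and 340 CPM in pDC WT against 2005 and 3651 CPM in cDC2 WT.

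Early response genes were called lower in pDC WT or not at all, and their count moved with single libraries. Of 40 tested genes of NF-kB and immediate early signalling, 12 were lower and none higher, with a median of -0.74. That share of 30% stood against 12.2% lower and 23.6% in either direction over all tested genes. Atf3 had 44.1, 77.4 and 180 CPM in pDC WT, against 1190 and 1321 CPM in cDC2 WT. The gene, which encodes a stress-induced transcription factor, was lower in every pDC WT library, and pDC WT 3 was the highest of its group. Without pDC WT 3, 21 of these genes were lower, and without cDC2 WT 2, 7 were lower. The thymi were digested with collagenase before sorting, and the part of that step was not tested.

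**Figure D4:**
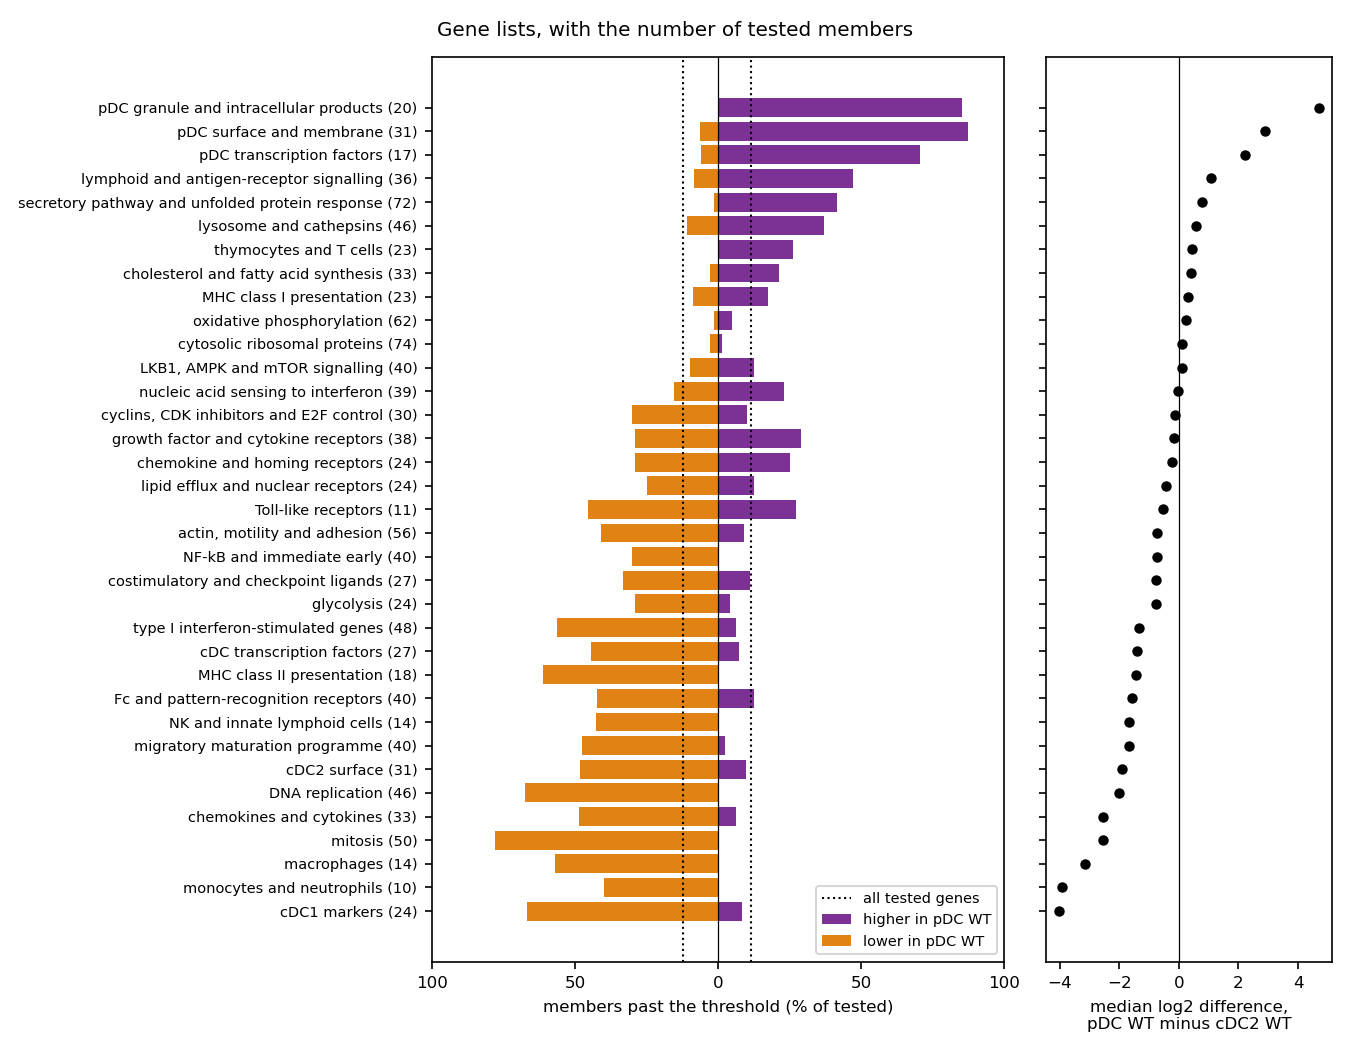
For each list with at least 10 tested genes, bars give the percent of members higher (right) and lower (left) in pDC WT, with dotted lines at 11.4% and 12.2% for all genes, and dots give the median log2 difference, pDC WT minus cDC2 WT. Lists run by their median, from the pDC lists at the top (4.70 for the mixed list of granule and intracellular products) to cDC1 markers at the bottom (-4.04). The lists were chosen with earlier results of these data known.

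The same subsets from KO mice gave a second reading in 6 other libraries. There 3040 genes were called (25.9%), 1285 higher in pDC KO (10.9%) and 1755 lower (14.9%). Of the 1336 genes higher in pDC WT, 883 were also called higher in pDC KO, which is 66.1% of the WT set and 68.7% of the KO set. Of the 1435 lower in pDC WT, 1035 were also lower in pDC KO, 72.1% of the WT set and 59.0% of the KO set. A single gene was called in opposite directions. By sign alone, 1281 of the higher (95.9%) and 1409 of the lower genes (98.2%) had the same direction in KO. Over all tested genes the median KO difference was -0.08. Thinned to the smallest library, cDC2 KO showed 12446 to 12767 genes, against 10840 and 11358 in cDC2 WT, and pDC KO 10829 to 11209. The rank correlation of transcript length with a library's level, relative to the gene mean, was 0.19 and 0.17 in cDC2 WT. It was -0.14 to -0.03 in cDC2 KO. The part of gene detection in differences between the genotypes was not tested. In the KO comparison 39 mitosis genes were lower and none higher, 26 interferon-induced genes were lower and 3 higher, and 31 secretory genes were higher and none lower. Siglech differed by 7.07 in KO and by 6.67 in WT, Tlr7 by 4.67 and 5.08, and Cd86 by -2.89 and -4.52.

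The difference itself was tested between genotypes, and edgeR's quasi-likelihood test called 0 of 11746 genes, with 988 at an unadjusted p under 0.05. DESeq2 called 36 and limma voom 0. The interaction rule for named genes took 2 genes with the smallest p. Mctp2 differed between pDC and cDC2 by 9.32 in KO and by 6.43 in WT, a gap of 2.89 ± 0.53 (adjusted p = 0.139). The gene 2610318N02Rik had no count in pDC WT and 6.56 and 11.4 CPM in cDC2 WT, and the difference was -0.17 in KO (adjusted p = 0.139 for the gap). Stk11, the gene targeted in KO mice, had 66.8, 40.6 and 46.7 CPM in pDC WT, against 34.2 and 34.9 CPM in cDC2 WT, a difference of 0.57 ± 0.33 that did not pass (adjusted p = 0.237). It averaged 37.8 ± 5.25 CPM in pDC KO and 31.2 ± 4.29 CPM in cDC2 KO (SD, n = 3 each), and since the tags lie at the 3′ end, a tag outside the deleted part would not show the deletion. Of 40 tested genes of LKB1, AMPK and mTOR signalling, 5 were higher and 4 lower in pDC WT, close to the share over all genes, and 3 were higher without cDC2 WT 1, cDC2 WT 2 or pDC WT 1, and 2 without pDC WT 2. Sik1, a kinase that LKB1 activates, was 3.44-fold higher in pDC WT, and Deptor, an inhibitor of mTOR, was 15.2-fold lower.

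**Figure D5:**
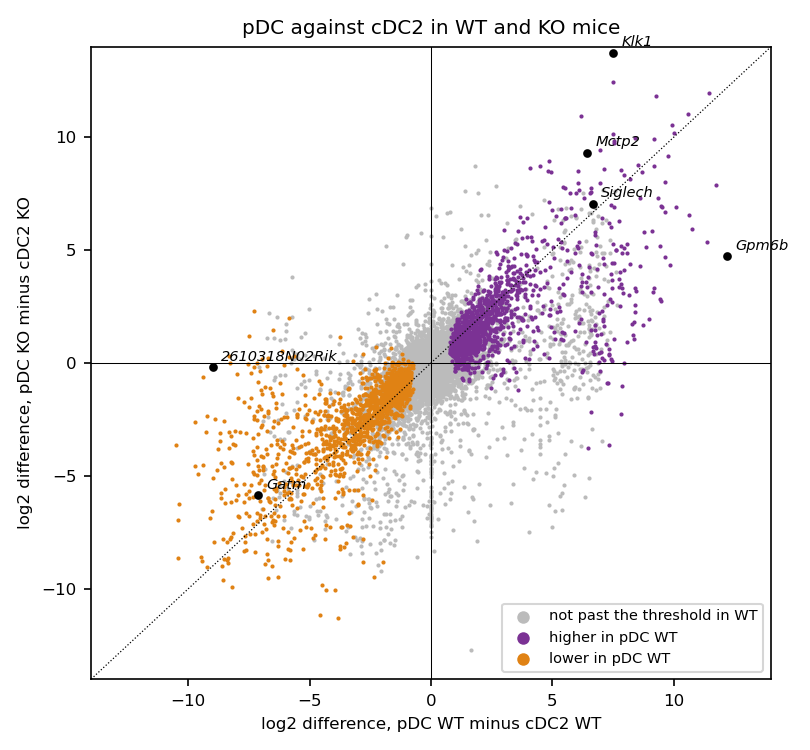
Each point is 1 tested gene, with its log2 difference, pDC WT minus cDC2 WT, on the x axis and that of pDC KO minus cDC2 KO on the y axis. Genes called in WT are coloured by direction, and the dotted line marks equal differences. Of the called genes, 1281 and 1409 keep their sign in KO.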

How the data were processed

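Raw read counts per gene were taken as deposited by the authors, 1 column for each of 15 libraries in 6 groups of 2 or 3 (cDC2, cDC1 and pDC, each KO and WT). Per the labels' protocols, oligo-dT primers with a barcode gave strand-specific 3′ tags, samples were combined once the first strand was made, and PCR ran for 12 cycles. Per the submitters' processing notes, the build listed is mm10 and the tools listed are STAR, HTSeq and DESeq2, without their roles. How duplicate reads were treated and whether counting used strand is not given in the sources used here, so genes that overlap or have near-identical copies are uncertain. No molecular identifiers are named, and floors cover counting error only.

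Genes passed the filterByExpr function of edgeR 4.0.16 (R 4.3.3) over the 6 groups, with its minimum count of 10 and minimum total of 15, and were scaled by TMM. A quasi-likelihood model with robust estimation held all 15 libraries, which then share 1 estimate of the spread. Contrasts were pDC WT over cDC2 WT, pDC KO over cDC2 KO, and the difference between these. P-values were adjusted by Benjamini-Hochberg over all tested genes at a threshold of 0.05. The fit was tested on simulated counts. Alternatives were RLE scaling, DESeq2 1.42.0, limma 3.58.1 (voom), other filters, a test against a fold of 2, the replicate number as a block, offsets for length and GC content, the contrast's libraries alone, and leaving out each library.

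The 39 gene lists and the members were chosen with earlier results of these data known. The text names genes from the 15 per direction with the smallest p and no overlap, the 10 per direction with the largest difference at a mean of at least 10 CPM, up to 8 per list by p, a set named whatever its values, and the 2 with the smallest p for the difference between genotypes. Cbfa2t3, Ccnd1, Cd3d, Cd3g, Cdk4, Cdk6, Clec9a, Ifi47, Ifngr1, Il12b, Irf3, Myd88, Sdf2l1 and Trim30a fall outside that rule and were chosen after their values were seen. Promoters were read from RefSeq on GRCm38.p6 by gene symbol, and each motif was searched on both strands. Some genes of the lists are not reported here by name.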

Additional observations from a re-analysis of the deposited data

How the results depend on the processing

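The counts of called genes moved in both directions. Against 1336 genes higher and 1435 lower in pDC WT, DESeq2 called 1567 and 1718, RLE scaling 1242 and 1536, limma voom with quality weights 781 and 1099, the contrast's libraries alone 679 and 889, and a test against a fold of 2, which asks for a larger difference, 586 and 729. The fold of 2 left 556 genes higher and 785 lower in pDC KO. Leaving out 1 library gave 1030 to 1257 higher and 1044 to 1398 lower genes in pDC WT, and 937 to 1180 higher and 1277 to 1542 lower genes in pDC KO. The difference between genotypes was called for 36 genes by DESeq2, for 88 genes with no filter, and for 0 to 1 genes when 1 library was left out. The cause was not tested.

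Same-numbered libraries did not deviate together (correlations of 0.05 and -0.06 over 7560 genes), and were not treated as pairs. With 2 libraries in cDC2 WT their deviations are mirror images, and the labels do not say whether equal numbers share mice. With the replicate number as a block, 1137 genes were higher and 1227 lower in pDC WT, 1186 higher and 1629 lower in pDC KO, and 0 differed between genotypes. For the 143 genes named, 2075 of 2140 values under other settings kept their direction and side of the threshold, 44 lost the call, 8 gained it and 13 turned sign. Some lost calls are not given beside the gene. Bcl11a, Tlr12 and Tlr2 lost theirs with the contrast's libraries alone, and Cd22, Sdf2l1, Thy1 and Tlr3 under limma voom. Against a fold of 2, Bcl11a, Cbfa2t3, E2f4, Ifnar1, Relb, Sdf2l1, Sik1 and Zeb2 lost theirs. The sign turned only for genes not called. Cox6a1 was at 0.0057 under limma voom and at 0.017 with the replicate block. When 1 library was left out, the differences ran from -0.51 to 0.36 for Ccnd1, -0.49 to 7.94 for Cd3e (which has no count in cDC2 WT 1), -0.74 to 0.62 for Cd3g, -0.25 to 0.91 for Clec9a, -0.16 to 0.083 for Cox6a1, -1.07 to 0.65 for Il12b, -0.58 to 0.17 for Irf7 and -0.91 to 0.37 for Myd88. Those of Ccnd1 without pDC WT 2 and of Cd3g without pDC WT 1 were 0.020 and 0.11, and that of Cox6a1 without cDC2 WT 1 was 0.071. With 2 libraries in cDC2 WT, leaving out 1 leaves a lone sample that is assumed to vary like the other groups. The smallest difference called was 0.73. At this depth and number of libraries, a difference that missed the threshold is not shown to be absent.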
